A study of Mus musculus with 18 samples.

Results

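This comparison covers 6 RNA libraries from germ cells of the ICR mouse testis, chosen from the 18 libraries of a long noncoding RNA study by 2 measured values and not by label alone. The first value was that of AY036118, a locus that lies in ribosomal RNA-derived sequence, which had to be below 100 FPKM (fragments per kilobase, corrected for library depth). The second was that of 1700027A15Rik, which had to lie between 50 and 200 FPKM in one set and below 1 FPKM in the other. The first set held replicates 1 and 2 of pacSC (postnatal day 21) and replicate 3 of elST (day 56), and the second held the 3 libraries of priSG-B (day 9). In all, 6 of 18 libraries and 2947 of 13218 loci were members, where a locus had to reach 1 FPKM in 3 or more of the 6 libraries.

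All animals were of the ICR strain, and no genotype, treatment or agent is given for any group. The labels do not spell out the cell type names. By common usage, SG means spermatogonia, SC spermatocytes and ST spermatids. Per the labels' protocols, the cell types were separated by STA-PUT sedimentation, which sorts cells mainly by size and yields enriched fractions, not pure ones, and libraries came from total RNA made with an Illumina TruSeq RNA kit, which does not mark strand. No label says whether the numbered samples came from separate animals, so every p-value rests on the spread of these libraries alone, and that spread can be technical. In such bulk samples, fewer cells of a type and less RNA per cell cannot be told apart.

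During spermatogenesis, spermatogonia divide by mitosis, enter meiosis as spermatocytes, pair their homologous chromosomes in the pachytene stage and then form haploid spermatids. Pachytene cells are known for very broad transcription of the genome, long noncoding RNAs included, and for silencing of the X and Y chromosomes inside the sex body. The transcription factor MYBL1 (A-MYB) is a known activator of pachytene genes, and long noncoding RNAs are transcripts without a recognised protein product that act, where a role is known, in chromatin, splicing or as hosts of small RNAs.

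AY036118 stood at 36.2, 27.2 and 23.03 FPKM in priSG-B replicates 1 to 3, at 7.44 and 7.25 in pacSC replicates 1 and 2, and at 7.41 in elST replicate 3. The other 12 libraries held 1998 to 13911 FPKM, with a median of 9290 FPKM (9289.8), so the limit of 100 FPKM fell in a wide gap. 1700027A15Rik, a transcript that shares an exon with the spermatid gene Tnp1 on the other strand, stood at 0.0708, 0.0549 and 0.0593 FPKM in the priSG-B libraries, at 75.8 and 84.9 in pacSC replicates 1 and 2, and at 73.0 in elST replicate 3. It reached 1195 FPKM in pacSC replicate 3, which was outside the selection because AY036118 was at 9242 FPKM there. These values chose the libraries, so no test is given for them here. Both loci stayed in the counts below, 1700027A15Rik among the risen and AY036118 among the fallen, where their direction was set by the selection or tied to it.

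**Figure D1:**
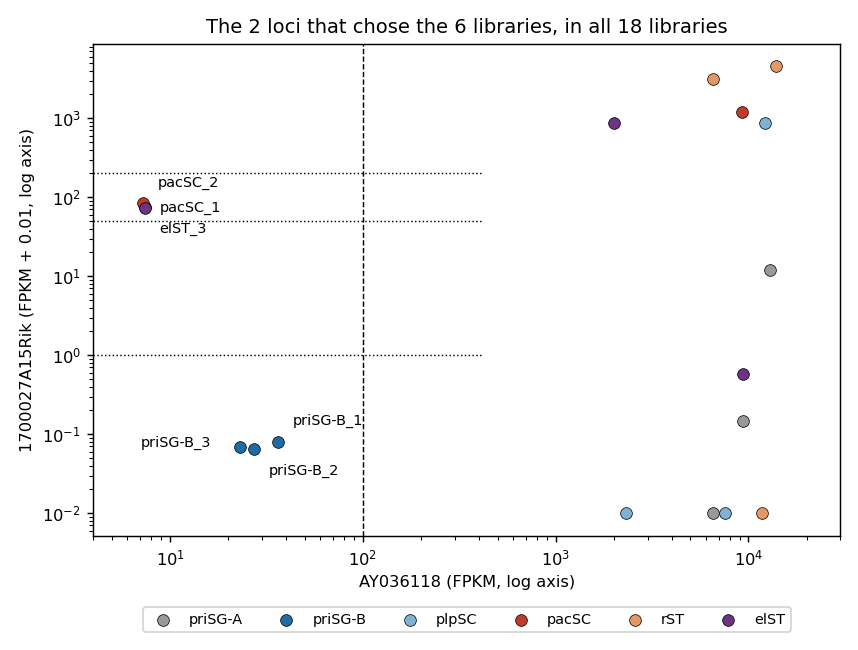
Level of AY036118 (x axis, FPKM, log scale) and of 1700027A15Rik (y axis, FPKM + 0.01, log scale) in all 18 libraries, 1 point per library, coloured by label. The dashed and dotted lines are the limits of the selection, and the 6 chosen libraries lie left of the line at 100 FPKM in 2 groups of 3.

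The 6 libraries were deeper than the other 12, with longer fragments. Inferred from the steps of the FPKM values, depth was 65.2 to 92.1 M (mega) fragments in these 6 libraries and 31.7 to 56.8 M in the other 12. The inferred fragment length was 234 to 239 bp in priSG-B, 263 to 268 bp in the other 3 libraries of the selection, and 198 to 214 bp in the other 12. Across the 2947 loci, log2(FPKM + 1) correlated at 0.975 to 0.983 (Pearson r, across loci, which are not independent) among the priSG-B libraries, at 0.969 to 0.976 among pacSC replicates 1 and 2 and elST replicate 3, and at 0.177 to 0.228 between the sets. The set called pachytene-like in the selection is named by its libraries here, because the table held none of the coding cell type markers looked for, which could have checked that name. Fragment length and the level of AY036118 separated the 6 libraries into the same 2 sets. Between pacSC replicates 1 and 2 and priSG-B, they cannot be told apart from the cell type label. The elST library, at 265 bp and 7.41 FPKM, lay with pacSC in both values despite its other label.

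The library labelled elST, from day 56, was set beside the pacSC libraries as values, with no test. Its log2(FPKM + 1) value was at least 1 above the mean of pacSC replicates 1 and 2 at 13 loci (0.441%) and at least 1 below it at 11 (0.373%). Compared library by library, elST replicate 3 differed by at least 1 from pacSC replicate 1 at 33 loci and from pacSC replicate 2 at 30. The pacSC replicates themselves differed by at least 1 at 30 loci. Of the 24 loci that differed from the mean, 20 had under 300 exon bases, close to the fragment length, where FPKM is least reliable. Gm29003, on the Y chromosome, was the locus of 300 or more exon bases with the largest difference, with 39.1 FPKM in pacSC replicate 1, 186 in replicate 2 and 548 in elST replicate 3, and it spread widely within pacSC too. By contrast, elST replicates 1 and 2 lay outside the selection and correlated at 0.374 and 0.766 with the mean of pacSC replicates 1 and 2, and at 0.845 and -0.0067 with that of priSG-B. The chi-square per degree of freedom of the reads inferred for pacSC replicate 1 and elST replicate 3 was 3.73, the lowest of all pairs but above sampling noise. Between pacSC replicates 1 and 2 it was 17.31. No library was counted as a repeat of another, but such values cannot tell a second library of the same sample from a separate sample. In the correlations above, elST replicates 1 and 2 went different ways, and neither was set beside elST replicate 3 directly. Replicate 3 of pacSC correlated at 0.622 with the mean of pacSC replicates 1 and 2, lower than elST replicate 2 did. Whether a label or a sample was exchanged cannot be told from these files. The values of elST replicate 3 therefore stand only for the library so labelled.

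Among the 2947 loci that passed the filter, more were higher than lower in pacSC, a balance that depended on the filter and on the scaling. The test set pacSC replicates 1 and 2 against the 3 priSG-B libraries by their labels, on log2(FPKM + 1), with limma and adjustment over all 2947 loci. At an adjusted p threshold of 0.05, 2106 loci rose (71.5%), 653 fell (22.2%) and 188 did not pass, so that 93.6% of all loci were called. The median log2 difference over all loci was 1.38, a shift that every list below is read against. With no filter, 4297 of 11483 loci rose, 2163 fell and the median was 0.02. After quantile normalization, which forces the libraries to the same distribution, the median was 0.07 and the calls were 1283 risen and 1266 fallen, which made 50.3% of the called loci risen against 76.3% without it. Of the 2106 risen loci, 436 were then called fallen, while all 653 fallen loci were called fallen both ways.

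The rises were larger than the falls. Of the risen loci, 978 (46.4%) rose by at least 2 on the log2 scale and 255 (12.1%) by at least 4, whereas 94 of the fallen loci (14.4%) fell by at least 2 and 2 by at least 4. The median was 1.89 among the risen and -1.05 among the fallen loci. The filter sets part of this: 1578 loci reached 1 FPKM only in pacSC replicates 1 and 2 and elST replicate 3 and so had to be higher there, and 357 reached it only in priSG-B. At the 774 loci with 1 FPKM or more in all 6 libraries, 410 rose, 228 fell and the median difference was 0.33. With elST replicate 3 added to the pacSC pair as values, all 3 lay above all 3 priSG-B libraries at 2116 loci (71.8%) and below at 669 (22.7%), 94.5% together. Means of log2(FPKM + 1) also differed by at least 1, or 2-fold on that scale, at 1773 of those higher (60.2%) and at 346 of those lower (11.7%).

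**Figure D2:**
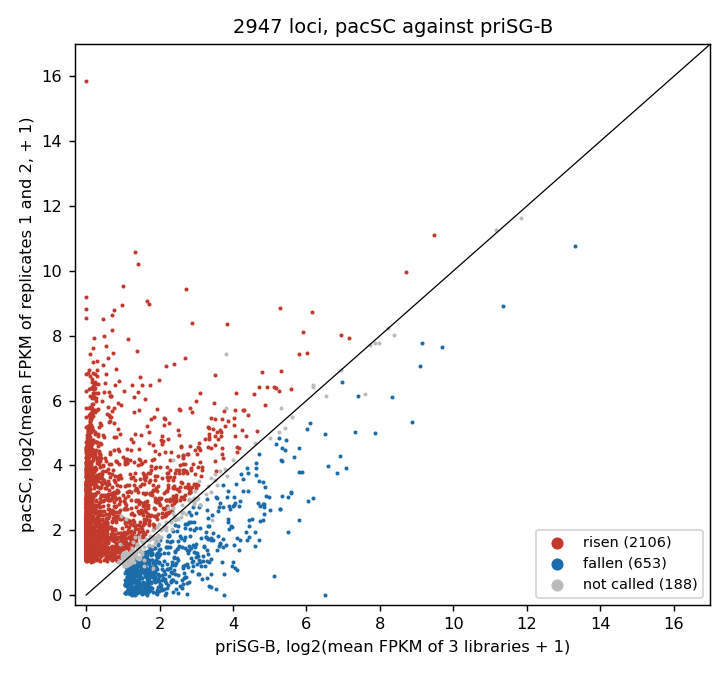
Each point is 1 of 2947 loci, with the log2(mean FPKM + 1) of the 3 priSG-B libraries on the x axis and that of pacSC replicates 1 and 2 on the y axis, coloured by call, and the line marks equal values. Risen loci (2106) gather along the left edge, near 0 in priSG-B, and fallen loci (653) lie nearer the diagonal.

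Calls differed in share between annotated types, given as a description to be read against the median of 1.38 over all loci. Of 1059 intergenic long noncoding loci (lincRNA), 84.0% rose with a median log2 difference of 1.88, against 71.5% of 859 antisense loci and 53.5% of 505 loci of the TEC type (models still to be verified). Loci that overlap no coding gene rose in 80.7% of 1417 cases, with a median of 1.72. The 98 loci that share an exon with a coding gene on the same strand held 44 risen and 44 fallen members, with a median of 0.01. A further 887 share an exon with a coding gene on the other strand, and there the unstranded reads cannot be assigned to either gene. Risen loci had a median of 1122 exon bases and 78.2% had several exons, while fallen loci had a median of 1669 and 56.7% had several.

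The largest rises, among loci spanning at least 300 bases, came from loci with almost no signal in priSG-B. Gm31072, a lincRNA at chr14:114945999-114947584 on the plus strand, was at 0.353, 0.620 and 3.59 FPKM in priSG-B, 1380.0 and 1685 in pacSC replicates 1 and 2, and 1425 in elST replicate 3. The last 3 values were all above 1000 FPKM and the groups did not overlap, with a log2 difference of 9.47 (SE 0.53, limma adjusted p = 8.4e-06). Gm31072 has only 314 exon bases, not far above the inferred fragment length, so its FPKM scale is uncertain. Rbakdn, named for its place downstream of the zinc finger gene Rbak at chr5:143164779-143165751 on the minus strand, was at 0.545, 1.31 and 3.11 FPKM in priSG-B against 1183, 1179 and 1174 in pacSC replicates 1 and 2 and elST replicate 3. The last 3 values lay close together, and the log2 difference was 8.92 (SE 0.40, limma adjusted p = 2.9e-06).

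Further autosomal loci behaved alike; whether near-identical copies elsewhere share their reads was not tested. 1700008K24Rik (chr17:49112263-49113535, minus strand, lincRNA), a clone from an adult testis library, was at 0.387, 0.901 and 1.78 FPKM in priSG-B and 677, 813 and 707 in pacSC replicates 1 and 2 and elST replicate 3. 1700110I01Rik (chr14:3262340-3305832, plus strand, lincRNA) was at 0.267, 0.396 and 1.43 FPKM against 436, 452 and 424. Both sets of 3 were far apart, with log2 differences of 8.58 (SE 0.30) and 8.10 (SE 0.29). Gm6455 on chromosome 5 was at 0.267, 0.722 and 1.93 FPKM against 457, 539 and 472, and Gm26654 on chromosome 3 at 0, 0.751 and 0.389 against 328, 399 and 423. Their log2 differences were 8.06 (SE 0.35) and 8.08 (SE 0.25), but Gm26654 has only 256 exon bases.

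Like Gm31072 and Gm26654, the other loci among the 10 largest rises are uncertain. Gm28462 and Gm29406 lie on the Y chromosome, where near-identical copies can share reads. Gm28462 was listed at 0 in every priSG-B library and at 444 and 299 FPKM in the pacSC pair and 207 in elST replicate 3. Gm29406 was listed at 0, 6.39 and 0 against 443, 635 and 565. 4930570D08Rik on the X chromosome and Gm48573 on chromosome 12, with 196 and 177 exon bases, were listed at 0 in every priSG-B library. They stood at 575, 602 and 476 FPKM and at 559, 343 and 571 in pacSC replicates 1 and 2 and elST replicate 3. Gm48573 shares an exon with Syndig1l on the other strand. No fold is given against a group listed at 0.

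Within priSG-B, the low level of risen loci differed between libraries. At 203 risen loci of at least 300 exon bases with 20 FPKM or more in pacSC and under 5% of that in priSG-B, the median level was 0.131%, 0.213% and 0.455% of the pacSC mean in replicates 1 to 3. Replicate 3 was the highest of the 3 at 150 loci and replicate 1 the lowest at 135, as at Gm31072 and Rbakdn. Without priSG-B replicate 3, 2089 loci rose and 650 fell, close to the counts with it.

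The largest falls, under the same limit of span, included several well-known noncoding RNAs. H19, an imprinted RNA abundant in fetal tissues (chr7:142575529-142578143, minus strand), was at 33.7, 32.7 and 34.8 FPKM in the priSG-B libraries and at 0.450, 0.560 and 0.436 in pacSC replicates 1 and 2 and elST replicate 3. The priSG-B libraries agreed closely (mean 33.7 ± 1.06 SD, n = 3) and the other 3 were all below 1 FPKM, with a log2 difference of -4.53 (SE 0.07, limma adjusted p = 1.9e-07). Terc, the RNA template of telomerase (chr3:96414437-96414833), was at 491, 392 and 524 FPKM against 34.8, 43.9 and 37.9, a log2 difference of -3.54 (SE 0.18, limma adjusted p = 4.9e-06). Firre, an X-linked RNA that organises chromatin (chrX:50555744-50635321, minus strand), was at 17.2, 17.1 and 12.2 FPKM against 0.888, 0.690 and 0.885, a log2 difference of -3.19 (SE 0.16). In each of these 3 loci every priSG-B library was above every other library of the selection.

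Hosts of small nucleolar RNAs were among the falls too. Zfas1, such a host that shares an exon with Znfx1 on the other strand, was at 64.0, 59.8 and 70.4 FPKM in priSG-B and 5.82, 7.05 and 6.71 in pacSC replicates 1 and 2 and elST replicate 3, a log2 difference of -3.15. Snhg4, which shares an exon with Gm28285, was at 15.5, 16.2 and 17.04 FPKM against 0.744, 0.679 and 0.270, a log2 difference of -3.33. Gm53, a lincRNA on chromosome 11, was at 10.9, 9.97 and 10.9 FPKM against 0.135, 0.133 and 0.248, a log2 difference of -3.35. All 3 fell without overlap. Rab26os, within Rab26 on the other strand, was at 57.3, 50.9 and 55.5 FPKM against 4.34, 3.65 and 3.90, a log2 difference of -3.48.

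The remaining 3 of the 10 largest falls lie opposite coding genes or on the Y chromosome. Gm10252 lies opposite the ferritin light chain gene Ftl1 and was at 69.1, 78.8 and 66.5 FPKM in priSG-B against 8.06, 5.82 and 7.72 in pacSC replicates 1 and 2 and elST replicate 3. Gm47283, on the Y chromosome and annotated as protein coding, was at 143, 140 and 118 FPKM against 15.9, 12.1 and 14.3. Gm20628 lies opposite the replication-dependent histone genes Hist2h3b and Hist2h2bb and was at 43.3, 42.2 and 46.4 FPKM against 2.59, 3.05 and 2.72. In all 3 the priSG-B values were the higher ones without overlap, with log2 differences of -3.20, -3.17 and -3.56.

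**Figure D3:**
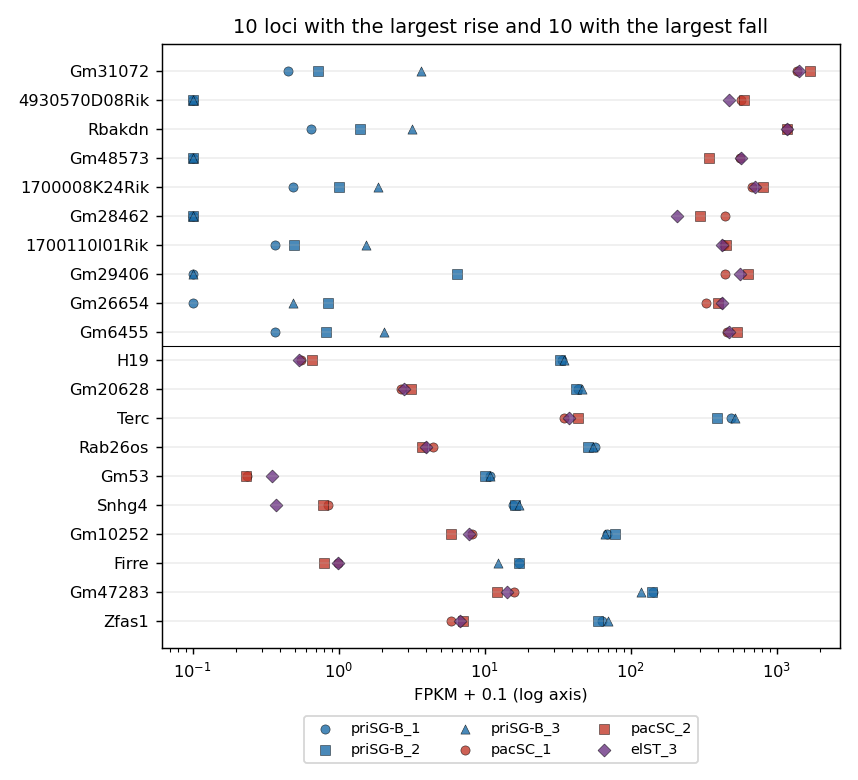
FPKM + 0.1 (x axis, log scale) of the 10 loci with the largest rise and the 10 with the largest fall, 1 point per library with a symbol for each of the 6 libraries. The 3 priSG-B points lie left of the others in the risen loci and right of them in the fallen loci, without overlap.

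Because of Gm20628, the loci that share an exon with a histone gene were looked at as a group, chosen after their values were seen. Of 7 tested, 4 fell, 1 rose and 2 did not pass, beside 22.2% fallen and 71.5% risen over all loci. Gm42743 shares an exon with Hist2h2bb on the same strand, where reads cannot be assigned to either gene. Gm42743 was at 11.7, 12.05 and 13.6 FPKM in priSG-B and 0.585, 0.543 and 0.554 in pacSC replicates 1 and 2 and elST replicate 3. 4930558J22Rik, opposite Hist1h4b on chromosome 13, was at 119, 110.2 and 131 FPKM against 18.3, 18.4 and 19.6. Both were higher in every priSG-B library than in the other 3, with log2 differences of -3.10 and -2.64. Gm20632, opposite Hist2h2aa2, was at 117, 110.5 and 134 FPKM against 110.9, 134 and 119.8, so that its groups overlapped. On the same stretch of chromosome 3, Terc fell, while Gm26654 and its neighbour 4930477E14Rik rose, the latter by 3.42 on the log2 scale from 0.108, 0 and 0.365 FPKM to 11.4, 11.2 and 12.7.

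Promoter sequence was taken from RefSeq (build GRCm38.p6), 250 bases before to 50 after the annotated start, for 979 of the 2947 loci. The motifs searched on both strands were the MYB core CAGTTG, the cyclic AMP response element TGACGTCA and the GC box GGGCGG. The MYB core was in 13.7% of all 32841 promoters of the table, in 17.98% of those of the tested loci, in 20.3% of 798 risen and in 8.84% of 147 fallen loci. It was in 36.4% of the 118 loci that rose by at least 4, and in none of the 20 that fell by at least 2. The GC box ran the other way, at 35.7% of all promoters, 28.8% of the risen and 57.1% of the fallen loci. The response element differed little, at 2.88% of risen and 3.40% of fallen loci. These shares are descriptions: GC content differed too, with a median of 50.7% in risen and 60.3% in fallen promoters, and a match is not a bound site.

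**Figure D4:**
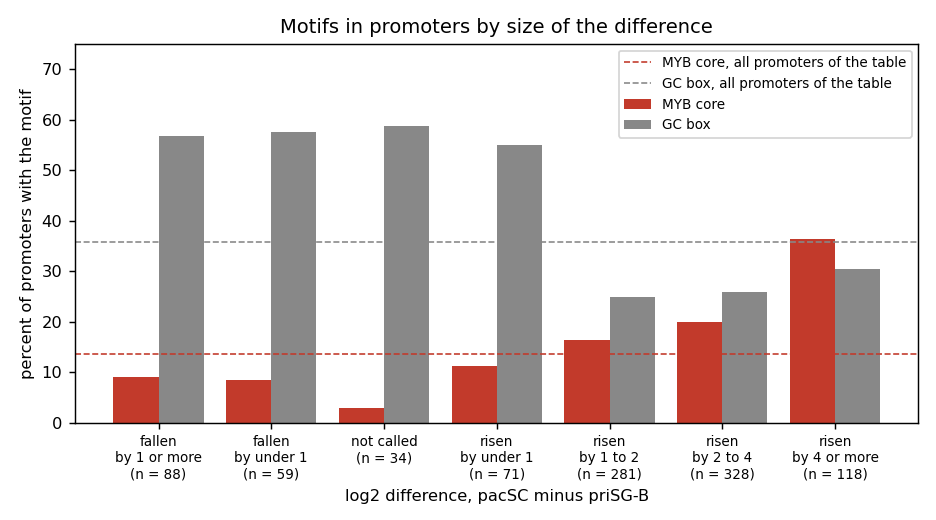
Percent of promoters (y axis) that hold the MYB core or the GC box, by the size of the log2 difference, pacSC minus priSG-B (x axis, with the number of promoters per class), with dashed lines for all promoters of the table. The MYB core was in 36.4% of the promoters with a rise of at least 4, in 2.94% of those not called (1 of 34) and in 9.09% of those fallen by 1 or more. The GC box was in 30.5%, 58.8% and 56.8% of the same classes. From the smallest to the largest rise, the GC box was in 54.9%, 24.9%, 25.9% and 30.5%.

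The promoters of 6 loci are shown as examples, 3 of strongly risen loci with a MYB core and 3 of strongly fallen loci without one, each written 5′ to 3′ on the strand of the locus with the motif matches in capitals. Among the 43 strongly risen loci with a MYB core, 23 held it within 50 bases of the start (53.5%), beside 46.6% of the 176 tested loci with the motif and 37.1% of all promoters with it. Rbakdn (chr5:143165702-143166001, minus strand) and 1700008K24Rik (chr17:49113484-49113783, minus strand) hold 1 core each, 7 and 10 bases after the start. 1700110I01Rik (chr14:3262152-3262451, plus strand) holds 2, 63 and 32 bases before it. In the fallen loci, Zfas1 (chr2:167062684-167062983, plus strand) holds 9 GC boxes, Firre (chrX:50635272-50635571, minus strand) holds 1, and Rab26os (chr17:24528001-24528300, plus strand) holds none of the 3 motifs in this window.
Rbakdn: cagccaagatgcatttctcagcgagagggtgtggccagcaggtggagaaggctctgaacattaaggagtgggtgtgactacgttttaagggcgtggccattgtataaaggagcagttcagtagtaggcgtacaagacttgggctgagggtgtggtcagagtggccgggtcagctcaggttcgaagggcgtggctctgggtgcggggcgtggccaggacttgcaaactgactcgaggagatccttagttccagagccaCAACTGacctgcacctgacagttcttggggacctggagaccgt
1700008K24Rik: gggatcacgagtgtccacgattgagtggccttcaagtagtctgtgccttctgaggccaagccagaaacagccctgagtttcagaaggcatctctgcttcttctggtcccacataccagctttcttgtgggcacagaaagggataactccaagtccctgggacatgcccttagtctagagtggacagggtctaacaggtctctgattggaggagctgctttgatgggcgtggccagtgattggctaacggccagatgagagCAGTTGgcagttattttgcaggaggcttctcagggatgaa
1700110I01Rik: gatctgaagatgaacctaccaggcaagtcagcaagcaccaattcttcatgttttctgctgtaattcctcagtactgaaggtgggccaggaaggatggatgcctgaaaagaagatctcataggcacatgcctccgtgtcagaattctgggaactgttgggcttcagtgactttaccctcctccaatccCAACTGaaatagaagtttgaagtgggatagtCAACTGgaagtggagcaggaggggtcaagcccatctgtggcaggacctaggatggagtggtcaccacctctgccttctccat
Zfas1: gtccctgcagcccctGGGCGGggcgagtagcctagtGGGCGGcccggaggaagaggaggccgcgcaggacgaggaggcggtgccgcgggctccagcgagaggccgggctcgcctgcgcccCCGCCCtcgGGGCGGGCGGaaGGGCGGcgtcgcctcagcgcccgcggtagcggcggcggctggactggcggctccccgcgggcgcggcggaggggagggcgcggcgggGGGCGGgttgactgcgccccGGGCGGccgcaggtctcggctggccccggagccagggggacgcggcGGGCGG
Firre: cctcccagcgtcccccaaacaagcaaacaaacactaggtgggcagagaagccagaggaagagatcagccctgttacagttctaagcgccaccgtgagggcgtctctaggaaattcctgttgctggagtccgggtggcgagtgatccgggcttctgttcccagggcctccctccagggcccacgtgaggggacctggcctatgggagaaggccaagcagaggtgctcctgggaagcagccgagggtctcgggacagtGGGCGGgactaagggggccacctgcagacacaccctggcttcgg
Rab26os: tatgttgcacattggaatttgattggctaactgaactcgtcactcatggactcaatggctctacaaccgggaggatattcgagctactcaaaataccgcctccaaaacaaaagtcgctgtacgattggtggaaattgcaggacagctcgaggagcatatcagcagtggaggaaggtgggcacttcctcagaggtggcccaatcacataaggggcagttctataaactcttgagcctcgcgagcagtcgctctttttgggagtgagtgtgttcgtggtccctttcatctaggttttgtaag

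Among loci that passed the filter, noncoding RNAs with a known role mostly went against the general rise, part of which the filter sets. Across 7 lists of known noncoding RNAs, 40 loci were tested, of which 10 rose and 26 fell (2 and 37 after quantile normalization), beside 71.5% risen and 22.2% fallen among all loci. With no filter, 12 rose and 30 fell, beside 4297 risen and 2163 fallen of 11483 loci. The lists were chosen with earlier results of these data known, and they are described by counts and medians alone.

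Small nucleolar RNA hosts, which carry guide RNAs for ribosomal RNA modification in their introns, showed the clearest count. There were 19 tested among 26 in the table, with 15 fallen, 3 risen and 1 not called, and a median log2 difference of -1.19. With no filter the median was -0.94 over 24 loci (15 fallen, 3 risen), beside 0.02 over all loci. After quantile normalization all 19 were called fallen, and in the fits over all 18 libraries 8 were, or 6 with a further term for the AY036118 split. Snhg1 was at 90.0 FPKM (90.025), 91.2 and 106 in priSG-B and 13.5, 16.3 and 13.6 in pacSC replicates 1 and 2 and elST replicate 3. Snhg20 was at 27.8, 23.9 and 31.3 FPKM against 4.32, 4.93 and 4.79. Snhg6 was at 55.5, 50.4 and 56.9 FPKM against 11.8, 13.8 and 11.9, with part of its exons opposite Mcmdc2. The 3 fell by 2.61, 2.34 and 2.01 on the log2 scale, and no library of one set reached the other. Gas5, the host known for its growth-arrest link, fell by 1.28. Snhg3 rose by 1.14, from 7.06, 5.47 and 6.92 FPKM to 16.4, 14.5 and 16.2, but shares an exon with Rcc1 and was among the loci called fallen after quantile normalization.

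Among imprinted noncoding RNAs, 9 of 16 loci in the table were tested, of which 5 fell, 2 rose and 2 did not pass (all 9 called fallen after quantile normalization). Their median log2 difference was -0.92, a value that depended on the filter. With a filter on the mean over all 18 libraries it was 0.05 (9 tested, 4 fallen, 2 risen), beside 1.39 over all loci. With no filter it was 0.05 over 15 loci, beside 0.02. With a filter of 5 FPKM only 2 loci were tested, and both fell. Besides H19, Rian, a maternally expressed RNA of the Dlk1-Dio3 domain, was at 14.2, 14.3 and 14.4 FPKM in priSG-B against 3.14, 3.54 and 2.70 in pacSC replicates 1 and 2 and elST replicate 3. Meg3, from the same domain, was at 2.24, 2.23 and 1.85 FPKM against 0.877, 0.389 and 0.409. Both fell without overlap, by 1.82 and 0.94 on the log2 scale. Snhg14, the long host transcript opposite Ube3a, stands on several rows of the table. Its row starting at 59937371 on chromosome 7 fell by 1.37, and its row starting at 59619158 rose by 0.78 but was called fallen after quantile normalization. H19 and Meg3, with Mir99ahg, Wt1os and Dnm3os, also served as noncoding stand-ins for somatic cells. The 3 tested (2 fallen and 1 risen, or 3 fallen after quantile normalization) summed to 37.6 to 39.2 FPKM in priSG-B and 6.46 to 8.34 in the other set, mostly H19. Wt1os and Dnm3os stayed under 1 FPKM in all 6 libraries. None of the coding markers of somatic cells was in the table, and the part of somatic cells in these falls was not tested.

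Nuclear and structural RNAs were mixed, with 6 loci tested, 3 fallen, 2 risen and 1 not called. With no filter 7 were tested, with 3 fallen, 3 risen and a median log2 difference of -0.29, beside 0.02 over all loci. Malat1, an abundant RNA of nuclear speckles, was at 571, 605 and 448 FPKM in priSG-B and 156, 111 and 140.3 in pacSC replicates 1 and 2 and elST replicate 3, a log2 difference of -2.01 (SE 0.21). Pvt1, a neighbour of Myc, was at 0.761, 0.518 and 0.586 FPKM against 6.36, 7.22 and 7.43, a log2 difference of 2.27 (SE 0.09). Tug1, an RNA with a known part in male fertility, was at 37.0, 36.6 and 37.1 FPKM against 28.2, 27.0 and 29.4, a small fall of 0.41 on the log2 scale. Neat1, the RNA of paraspeckles, was at 8.61, 8.27 and 5.65 FPKM against 6.71, 5.14 and 5.85, with overlapping groups. Rmrp, the RNA of RNase MRP that dividing cells need, was listed at 0 in every priSG-B library and at 51841, 66814 and 55398 FPKM in the other set, 51.3 to 54.7% of the summed FPKM there. The 12 libraries outside the selection held 253 to 65601 FPKM of Rmrp, with 5423, 54480 and 15181 in priSG-A, so only priSG-B was listed at 0. Rmrp has 281 exon bases and shares an exon with Ccdc107. Its listing at 0 may not be a level, and the reason for it was not tested. The rise of Rmrp, counted here and across the lists, is uncertain for that reason. Gm2044, a testis lincRNA of the spermatogenesis list, was at 13.5, 14.3 and 16.3 FPKM against 0.977, 0.736 and 0.427.

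MicroRNA hosts numbered 7 tested of 13, with 4 risen, 2 fallen and 1 not called, and a median log2 difference of 0.25, which turned to none risen and 6 fallen after quantile normalization. With no filter the median was 0.23 over 13 loci (5 risen, 4 fallen), above the 0.02 over all loci. Mir22hg was at 4.30, 4.55 and 4.88 FPKM in priSG-B and 1.19, 1.18 and 1.22 in pacSC replicates 1 and 2 and elST replicate 3, a fall of 1.35. Mir99ahg was at 3.01, 2.67 and 2.50 FPKM against 7.01, 5.57 and 5.61, a log2 difference of 0.96 that became -0.65 after quantile normalization. Mir100hg had a small difference of -0.35, whose adjusted p was 0.055 without pacSC replicate 1. Mir142hg, with 269 exon bases, was at 1.13, 0 and 0.285 FPKM against 1.66, 5.75 and 2.01, and its call (limma adjusted p = 0.021) was lost without pacSC replicate 2 (adjusted p = 0.24).

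Some of these calls depended on the choice of libraries. When pacSC replicate 3 joined the pacSC group, which added a library outside the selection, limma adjusted p was 0.35 for Meg3, 0.078 for Malat1, 0.11 for Tug1, 0.39 for Mir100hg, 0.16 for Mir142hg and 0.074 for Mir99ahg. In a fit over all 18 libraries by label, the calls of Rian (limma adjusted p = 0.064), Mir22hg (0.12) and Pvt1 (0.076) were lost too, while Mir99ahg kept its call (0.047). Fallen imprinted loci then numbered 2, against 5 within the 6 libraries. With a further term for the AY036118 split, Terc (0.057), Firre (0.054), Snhg1 (0.057), Snhg20 (0.053) and Snhg6 (0.068) lay just above the threshold, with log2 differences larger in size than within the 6 libraries. The same held for 1700010D01Rik (0.060) and BC061195 (0.074), X-linked loci described below.

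Transcripts cloned from adult testis made up a large share of the rises. Of 1134 loci named after RIKEN clones of adult testis libraries, 675 were tested, and 651 rose, 15 fell and 9 did not pass (513 risen and 71 fallen after quantile normalization; 71.5% risen and 22.2% fallen over all loci), with a median log2 difference of 2.28. Since 575 of them were below 1 FPKM in every priSG-B library, most passed the filter only through the set in which they were high, and the count supports nothing by itself. Of the 74 with 1 FPKM or more in all 6 libraries, 57 rose. The risen members had a median of 0.0447 FPKM in priSG-B and 5.34 in pacSC. 4930567K20Rik on chromosome 10 was at 0.145, 0.394 and 1.37 FPKM in priSG-B against 362, 442 and 386 in pacSC replicates 1 and 2 and elST replicate 3. Among the 15 that fell, 4933427D06Rik had the largest difference, from 15.6, 15.8 and 13.4 FPKM to 1.17, 0.919 and 0.879. Loci named after other RIKEN clones were 273 tested, with 146 risen and 103 fallen, a balance that turned to 51 and 185 after quantile normalization. There, 3110070M22Rik was at 0.357, 0.635 and 0.836 FPKM against 67.0 (67.0251), 72.9 and 71.2.

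Of 101 transcripts named as opposite-strand partners of coding genes, 81 rose and 14 fell (51 and 39 after quantile normalization), with a median log2 difference of 1.63. These are near the 71.5% risen, 22.2% fallen and median of 1.38 over all loci. Med9os was at 0.333, 0.686 and 0.992 FPKM in priSG-B and 176, 178 and 171 in pacSC replicates 1 and 2 and elST replicate 3. Kcnmb4os1 was at 1.27, 1.23 and 1.66 FPKM against 85.3, 91.4 and 92.1. Rbm46os, which lies across Lrat on the other strand, was at 0.839, 0.773 and 1.18 FPKM against 53.6, 61.3 and 59.7, and Lyzl4os was at 0.0282, 0.0377 and 0 against 29.0 (29.0045), 30.6 and 26.1. All 4 rose without overlap, by 4.91 to 6.76 on the log2 scale.

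**Figure D5:**
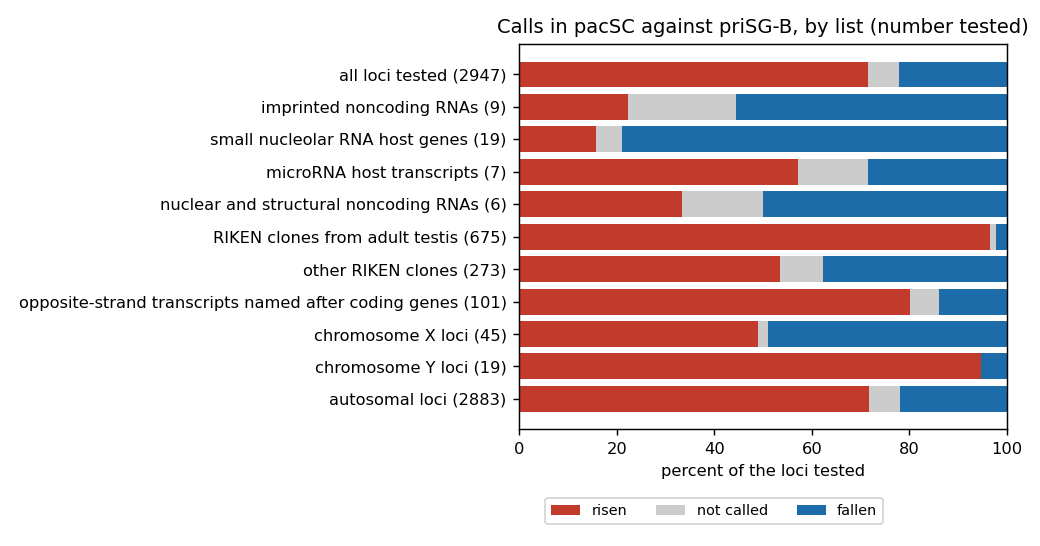
Percent of tested loci called risen, fallen or not called in each list (x axis), with the number tested in brackets, beside all loci tested. Small nucleolar RNA hosts had 15 of 19 fallen, adult testis RIKEN clones had 651 of 675 risen, and X loci split 22 and 22. After quantile normalization, these counts were 19 of 19 fallen, 513 of 675 risen, and 18 and 25. Of the 675 clones, 575 were below 1 FPKM in every priSG-B library, so most passed the filter only through the set in which they were high. Of the 74 clones with 1 FPKM or more in all 6 libraries, 57 rose.

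Sex chromosome loci did not follow 1 direction. On the X chromosome, 45 of 189 loci were tested, with 22 risen, 22 fallen and 1 not called (18 and 25 called after quantile normalization). Their median log2 difference was 0.07, while 71.7% of 2883 autosomal loci rose and 21.9% fell, with a median of 1.38. The gap in medians depended on the filter. With a filter on the mean over all 18 libraries, the X median was 1.24 (53 tested, 26 risen, 18 fallen), beside 1.39 over all loci. With no filter the 2 medians were -0.005 and 0.02, and with a filter of 5 FPKM they were -1.475 and 2.76. The fallen X loci included Firre and Ftx, an RNA of the X-inactivation centre that was at 37.6, 34.0 and 42.7 FPKM in priSG-B against 5.26, 5.43 and 5.01 in pacSC replicates 1 and 2 and elST replicate 3, a log2 difference of -2.62. Gm14820, opposite Suv39h1, was at 19.7, 19.8 and 19.6 FPKM against 2.31, 2.25 and 2.04, a fall of 2.66. The risen X loci were mostly near 0 in priSG-B. 1700010D01Rik was at 0.306, 0.279 and 0.776 FPKM against 103, 118 and 108, and BC061195 at 0.608, 0.618 and 0.995 against 83.1, 92.6 and 84.4. Gm27192 was at 0.240, 1.69 and 0.305 FPKM against 116, 134 and 119. Astx5, of a multicopy family on the X chromosome whose copies may share reads, was at 0.0191, 0.0117 and 0.0300 FPKM against 8.48, 9.08 and 8.24.

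On the Y chromosome, 19 of 563 loci were tested, and 18 rose and 1, Gm47283, fell (16 and 2 after quantile normalization), beside 71.5% risen and 22.2% fallen over all loci. Nearly all of the 18 were at or near 0 in priSG-B and passed the filter only through the other 3 libraries, so their direction was set by the filter. Gm37158 was the exception, at 10.5, 11.6 and 9.12 FPKM in priSG-B against 30.5, 27.1 and 29.9. Gm29277 and Gm29089 held identical values in all 6 libraries (5.04, 5.81 and 5.39 FPKM in pacSC replicates 1 and 2 and elST replicate 3), so that the 18 are not 18 separate measurements. Gm37473 was at 0, 0.494 and 1.07 FPKM in priSG-B against 42.5, 67.0 (66.9797) and 51.4. Of the loci with the highest values, Gm47551, on chromosome 13, took the largest share in priSG-B, at 11595, 7654 and 11390 FPKM (24.9 to 33.3% of the summed FPKM), against 1353, 2151 and 1031. Gm47551 has 165 exon bases, so its FPKM scale is uncertain. Gm26917, which lies beside AY036118 on chromosome 17, was at 2746, 2520.5 and 2577 FPKM against 454, 503 and 468, following the locus that chose the libraries.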

How the data were processed

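The authors deposited 1 table of FPKM for 13218 loci. They name HISAT2, StringTie and mm10 in the submitters' processing notes. For the annotation, the versions and the FPKM denominator, the sources used here give nothing. Loci were matched to GENCODE M21 by identifier (13191 matched, 27 not), and coordinates are 1-based on mm10.

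Members, lists and comparisons were chosen with earlier results of these data known. Loci with 1 FPKM or more in at least 3 of the 6 libraries were tested as log2(FPKM + 1) with limma 3.58.1 in R 4.3.3 (trend and robust, two-sided, Benjamini-Hochberg over 2947 loci, threshold 0.05), with 1 coefficient per label, elST replicate 3 as a group of 1, and the contrast pacSC minus priSG-B. Differences are on this scale, which understates those of low loci. Named loci were the 10 largest changes each way among called loci without overlap, spanning at least 300 bases and reaching 5 FPKM, and up to 4 per list. Further loci named in the text were picked with their values in view. The test was first run on simulated data. Depth was inferred from low values of single-exon loci (97.9 to 99.1% whole within 0.02). Alternatives were other pseudocounts, filters, normalizations, library choices and each library left out. Tables and figures used Python 3.11.15, numpy 2.4.6, pandas 2.3.3 and matplotlib 3.10.9.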

Additional observations from a re-analysis of the deposited data

How the results depend on the processing

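Against 2759 called loci, 2106 risen and 653 fallen, the counts were 6460, 4297 and 2163 with no filter, 1145, 943 and 202 with a filter of 5 FPKM, 1501, 1202 and 299 with all 18 libraries by label, and 1406, 1142 and 264 with the AY036118 split as a further term. Fewer or more loci were tested under the other filters (11483 with none, 1195 at 5 FPKM). Quantile normalization gave 1283 risen and 1266 fallen. Leaving out each pacSC or priSG-B library in turn gave 2598 to 2739 called, 2017 to 2094 risen and 579 to 650 fallen, and leaving out elST replicate 3 gave 2759, 2105 and 654. The 10 risen loci of the 7 known lists became 5 at 5 FPKM, 2 after quantile normalization, 2 with all 18 libraries, 2 with the further term, 3 with all 3 pacSC libraries, and 5 to 10 with a library left out. The 26 fallen became 12 and 10 in the fits over 18 libraries. Adult testis RIKEN clones risen (651) became 323 at 5 FPKM and 351 with the further term. X loci risen (22) became 56 with no filter, 10 at 5 FPKM, 10 with 18 libraries and 3 with the further term, and X loci fallen (22) became 52 and 11 under the first 2. Mir99ahg reversed to -0.65 after quantile normalization. The 2785 loci without overlap became 1155 at 5 FPKM, and the 2119 with 2-fold means as well became 1062 at 4-fold. The 24 loci at which elST replicate 3 differed became 10 at a difference of 2 and 48 with a pseudocount of 0.1. The cause of these moves was not tested unless the construction gives it.

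The labels do not say what a replicate number marks, and only 2 numbers are shared. Deviations from the group means correlated at 0.251 and 0.221 between same-numbered libraries. With 2 pacSC libraries, the deviations of one mirror those of the other. The 2 values are therefore not separate and cannot show that same-numbered libraries go together. With the number as a replicate block, 2722 loci were called, 2081 risen and 641 fallen, and the call of Mir142hg was lost (adjusted p = 0.36), as was that of Gm29003 (0.052). Of 843 values of 50 named loci under the alternatives, 805 kept direction and call, 37 kept direction and lost the call, and 1 reversed. With 2 pacSC libraries and no labelled animals, the spread is known poorly, and loci shorter than the fragments have unreliable FPKM.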
